A study of Rattus norvegicus with 20 samples.

Results

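The 10 genes described here are genes of tendon and of the myotendinous junction, the site where the muscle fibre transmits its force to the tendon: Scx, Mkx, Tnmd, Fmod, Kera, Chad, Comp, Thbs4, Cilp and Cilp2. They were found by gene symbol among the 32495 named gene rows of the count table, collagens were left out, each symbol matched 1 row, and all 10 were among the 11716 rows that passed the filter on low counts. Transcripts were measured by rRNA-depleted total RNA sequencing of gastrocnemius muscle, a fast calf muscle, from female Fischer 344 rats. All rats carried the Ward colorectal carcinoma, so every group shares the tumour. TUMOUR STD rats (n = 5) ate a standard diet and received no chemotherapy. CHEMO STD rats (7 libraries, counted as 6 samples) ate the same diet and received repeated cycles of irinotecan (CPT-11) with 5-fluorouracil, and CHEMO FO rats (n = 8) received the same drugs and were moved to a fish oil diet when chemotherapy began. RNA came from 10 mg of muscle per animal. The position of that piece along the muscle was not stated in the labels or methods, and the methods give the age of the rats without a unit. No group without a tumour was sequenced, so the tumour itself is not part of any comparison.

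The depth, as counts on named genes, was 5422118 to 10857477 in the TUMOUR STD libraries, 3020821 to 10516783 in those of CHEMO STD and 3035841 to 9119394 in those of CHEMO FO. CHEMO STD replicates 1 and 2 were far closer to each other than any other libraries of a group, with a chi-square per gene of 2.23 over genes that had 500 or more counts between them, against 13.7 to 255 in the other 58 within-group pairs, and were therefore summed and counted as 1 sample, written 1+2. The keratinocyte markers, which belong to skin, summed to 377 CPM (counts relative to the TMM-scaled library size) in TUMOUR STD replicate 10 and to 82.4 CPM in CHEMO FO replicate 16, and to at most 4.13 CPM in each other sample. CHEMO FO replicate 18 held the lowest summed level of the fast-fibre and muscle markers, 122990 CPM, where the median of its group was 219700 CPM. Markers of the labelled tissue were present throughout: Myh4, the fast myosin heavy chain, was between 61320 and 112400 CPM in every sample, and Acta1 and Ckm were at least 23220 and 16410 CPM.

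Tendon is built by tenocytes, fibroblasts that lay down parallel collagen fibrils. Scx (scleraxis) and Mkx (mohawk) are the transcription factors that mark and maintain this lineage, and Tnmd (tenomodulin) is a membrane glycoprotein of mature tenocytes and a target of Scx. Fmod (fibromodulin), Kera (keratocan) and Chad (chondroadherin) are leucine-rich repeat proteins that bind collagen or cells, and the first of them governs fibril thickness. Comp (cartilage oligomeric matrix protein) and Thbs4 (thrombospondin-4) are pentameric members of the thrombospondin family, and Thbs4 is concentrated at the myotendinous junction. Cilp and Cilp2 are cartilage intermediate layer proteins, which are also found in tendon and fibrous tissue.

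All 10 genes had a lower mean level in CHEMO STD than in tumour-bearing rats given no drugs, and the median of their log2 fold changes was -0.83, against -0.0016 over all genes tested. Thbs4, Fmod and Kera passed the study's threshold of an unadjusted p value below 0.05 with at least 1.5-fold change, and fell to between 0.514 and 0.579 of their TUMOUR STD level. Chad, Comp and Cilp2 showed folds as large but spread more among rats, and did not pass. Of all genes tested, 2.38% were called in this comparison, 1.45% as lower, and 50.3% had a lower level at any size. Among the members 3 of 10 were called, but they were chosen with earlier results of these data known. The distance of this share from the background is therefore not evidence about the set. The 10 genes were high or low together from rat to rat, so they are not 10 separate observations of a lower level. After Benjamini-Hochberg adjustment over all genes in edgeR's quasi-likelihood test, no member passed 0.05 (smallest adjusted p = 0.72), nor did any other gene, while 762 genes had an unadjusted p value below 0.05. No member had groups that did not overlap, as 0.495% of all genes did.

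The calls rested on few samples. Without TUMOUR STD replicate 10, or without TUMOUR STD replicate 12, none of the 10 was called, and without both CHEMO STD 1 and 2, 7 of 10 were called (Chad, Cilp2, Comp, Fmod, Kera, Thbs4 and Tnmd). The calls of Fmod and Kera also ended without any 1 of CHEMO STD replicates 3, 4, 5, 6 and 7, which left Thbs4 alone. That of Kera ended without CHEMO FO replicate 19 as well. Each of the 10 fold changes stayed below 0 with any 1 library, or both of CHEMO STD 1 and 2, left out, though some came close to it. Without TUMOUR STD replicate 10 the log2 fold change was -0.022 for Cilp and -0.17 for Mkx, and the median of the 10 was -0.48.

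The same comparison in rats given chemotherapy with fish oil, CHEMO FO versus TUMOUR STD, again put all 10 genes at a lower mean level, with a median log2 fold change of -0.87. Kera, Tnmd and Fmod were called lower, at 0.455, 0.474 and 0.522 of the TUMOUR STD level. The background was 3.6% of all genes called and 2.51% called lower, with 49.6% lower at any size. The smallest adjusted p of a member was 0.49 (edgeR quasi-likelihood test with Benjamini-Hochberg adjustment), no gene passed 0.05 in edgeR, and 1059 had an unadjusted p value below 0.05; DESeq2 put 11 genes past its adjusted threshold, none of them a member. Both comparisons use the same 5 TUMOUR STD samples, so the second is not an independent repeat of the first. Left out in turn, TUMOUR STD replicate 12 ended all 3 calls and TUMOUR STD replicate 10 left Tnmd alone.

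Fish oil during chemotherapy, CHEMO FO versus CHEMO STD, gave no call among the 10 genes, where 1.66% of all genes were called and 1.05% were called lower. The level was lower in CHEMO FO for 5 genes and higher for 5, with a median log2 fold change of 0.011. Tnmd was the furthest from 0, at a log2 fold change of -0.62 ± 0.40 (SE; edgeR p = 0.13, exact permutation p = 0.27), with a 95% interval from -1.45 to 0.20. The intervals of the others were wide: that of Chad ran from -1.10 to 1.43 and that of Thbs4, the narrowest, from -0.33 to 0.85. Each of these intervals held both lower and higher levels in CHEMO FO. The size of difference that these samples could detect was not tested. No member passed the adjusted threshold in edgeR, and none had an unadjusted p value below 0.05. The even split of the 10 genes changed when any of several samples was left out. Without sample 1+2 of CHEMO STD 2 genes were lower in CHEMO FO, and the median log2 fold change was 0.39. With its libraries 1 and 2 kept apart 8 were lower, and the median was -0.26. Without CHEMO STD replicate 7, or without CHEMO FO replicate 13, 14 or 16, the number lower was also 8. It was 7 without CHEMO STD replicate 6 and 6 without replicate 4 or 5. It was 4 without CHEMO FO replicate 20 and 3 without replicate 18.

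**Figure D1:**
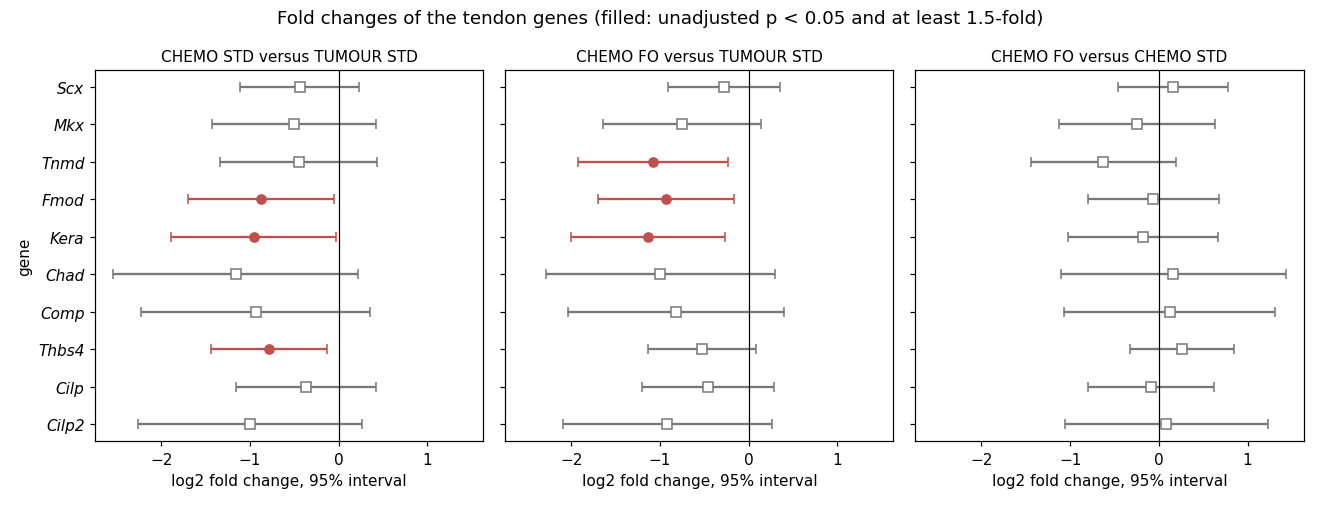
Log2 fold changes of the 10 tendon genes (points) with 95% intervals (bars) in the 3 comparisons, from edgeR over 19 samples; filled red points passed an unadjusted p below 0.05 with at least 1.5-fold change. All 10 points lie below 0 in both comparisons with TUMOUR STD, 3 of them called in each, and 5 lie on each side of 0 between the chemotherapy groups.

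Among the transcription factors, Scx was at 11.5, 11.5, 14.4, 15.4 and 24.1 CPM in TUMOUR STD replicates 8 to 12. Its level in CHEMO STD ran from 7.31 CPM through a median of 8.37 to 18.1 CPM, the last in sample 1+2, and in CHEMO FO from 3.64 through 13.1 to 18.9 CPM. The groups overlapped, 4 of the 6 CHEMO STD samples lying under every TUMOUR STD sample, and the log2 fold change of -0.44 ± 0.32 (SE) against TUMOUR STD had p = 0.19 (exact permutation p = 0.14). Scx was the member with the smallest difference between CHEMO FO and TUMOUR STD, -0.28 ± 0.31, p = 0.37 (exact permutation p = 0.42). Mkx was the least counted of the 10, with 3 to 105 counts per sample, and its TUMOUR STD values were 2.08, 2.98, 7.38, 2.26 and 5.86 CPM in replicates 8 to 12. In CHEMO STD it ranged from 0.954 to 5.30 CPM (median 2.55) and in CHEMO FO from 0.802 to 5.72 CPM (median 2.64). Its log2 fold changes against TUMOUR STD, -0.51 ± 0.45 in CHEMO STD and -0.75 ± 0.43 in CHEMO FO, were within the spread between rats (p = 0.27 and 0.094, exact permutation p = 0.27 and 0.18).

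Tnmd, the downstream marker of the mature tenocyte, was at 15.6, 8.35, 32.9, 20.9 and 38.5 CPM in TUMOUR STD replicates 8 to 12. Levels in CHEMO STD ran from 6.10 to 36.6 CPM with a median of 14.1 CPM, and those in CHEMO FO from 3.79 to 19.3 CPM with a median of 11.2 CPM. Every CHEMO FO sample thus lay under the 3 highest TUMOUR STD samples, and TUMOUR STD replicate 9 lay among the low CHEMO FO values. In CHEMO FO the log2 fold change against TUMOUR STD was -1.08 ± 0.41, p = 0.015 (exact two-sided permutation test of log2 CPM, p = 0.055). In CHEMO STD it was -0.45 ± 0.43, p = 0.30 (exact permutation p = 0.33), and the highest CHEMO STD value, in sample 1+2, was close to the highest of TUMOUR STD.

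Of the leucine-rich repeat proteins, Fmod was at 209, 263, 516, 218 and 471 CPM in TUMOUR STD replicates 8 to 12. The 6 CHEMO STD samples held 93.7 to 422 CPM with a median of 146 CPM, and all but sample 1+2 were at or under 176 CPM, below each TUMOUR STD sample. CHEMO FO spanned 64.3 to 296 CPM with a median of 155 CPM. Fmod fell by 0.88 ± 0.40 on the log2 scale in CHEMO STD (p = 0.039, exact permutation p = 0.056) and by 0.94 ± 0.37 in CHEMO FO (p = 0.019, exact permutation p = 0.042), and it was the member for which both tests passed 0.05 in the second comparison. Kera was at 78.7, 27.0, 159, 65.4 and 157 CPM in TUMOUR STD replicates 8 to 12, a spread in which replicate 9 was at the level of the lowest CHEMO STD sample. It ranged from 27.1 to 107 CPM in CHEMO STD (median 40.3) and from 12.3 to 75.7 CPM in CHEMO FO (median 51.9). Kera fell by 0.96 ± 0.45 in CHEMO STD (p = 0.045, exact permutation p = 0.14) and by 1.14 ± 0.42 in CHEMO FO (p = 0.013, exact permutation p = 0.082).

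Chad had the largest fold in CHEMO STD and also the widest spread. Its TUMOUR STD values were 31.1, 26.9, 156, 23.9 and 115 CPM in replicates 8 to 12, so 2 rats were several times above the other 3. CHEMO STD held 11.6 to 94.0 CPM (median 18.95) and CHEMO FO 5.73 to 73.2 CPM (median 23.5), where replicates 13, 14 and 16 were at 73.2, 72.6 and 73.0 CPM. With SEs of 0.67 and 0.62, the log2 fold changes of -1.16 in CHEMO STD and -0.998 in CHEMO FO had p values of 0.095 and 0.12 (exact permutation 0.14 and 0.20) and could not be told from the spread between rats.

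In the thrombospondin family, Thbs4 was the most counted of the 10, with 659 to 10083 counts per sample. It was at 273, 303, 775, 265 and 613 CPM in TUMOUR STD replicates 8 to 12. Of the CHEMO STD samples, 5 lay between 175 and 236 CPM, under every TUMOUR STD sample, and sample 1+2 was at 509 CPM. Thbs4 fell by 0.79 ± 0.32 on the log2 scale (p = 0.020, exact permutation p = 0.10). CHEMO FO samples, from 147 through a median of 325 to 452 CPM, lay within the TUMOUR STD range in 5 of 8 cases, and the difference of -0.53 ± 0.29 was not called (p = 0.087, exact permutation p = 0.22). Between the chemotherapy groups Thbs4 differed by 0.26 ± 0.28, p = 0.37 (exact permutation p = 0.33), so the call in CHEMO STD and its lack in CHEMO FO do not show a difference of diet. Comp was at 29.0, 34.9, 138, 30.4 and 78.4 CPM in TUMOUR STD replicates 8 to 12. Its CHEMO STD values were 11.4 to 23.7 CPM in 5 samples and 102 CPM in sample 1+2, and its CHEMO FO values ran from 6.15 to 81.7 CPM (median 19.1). The log2 fold changes of -0.94 ± 0.63 and -0.82 ± 0.59 against TUMOUR STD had p values of 0.15 and 0.18 (exact permutation 0.12 and 0.19).

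The cartilage intermediate layer genes differed from each other. Cilp was at 50.6, 63.9, 149, 50.2 and 88.9 CPM in TUMOUR STD replicates 8 to 12. In CHEMO STD it was the steadiest of the 10, between 49.4 and 70.9 CPM with a coefficient of variation of 14.9%. Sample 1+2, at 70.5 CPM, did not stand apart. The CHEMO STD median, 64.0 CPM, was not below that of TUMOUR STD, 63.9 CPM. In CHEMO FO Cilp ran from 7.998 CPM in replicate 18 to 108 CPM in replicate 16. The difference from TUMOUR STD was -0.37 ± 0.38 in CHEMO STD (p = 0.34, exact permutation p = 0.45) and -0.46 ± 0.36 in CHEMO FO (p = 0.21, exact permutation p = 0.36). Cilp2 was at 31.1, 63.9, 150, 47.9 and 164 CPM in TUMOUR STD replicates 8 to 12. It ranged from 17.2 to 140 CPM in CHEMO STD (median 26.5) and from 7.45 to 100.2 CPM in CHEMO FO (median 36.5). Its log2 fold changes of -1.001 ± 0.61 and -0.92 ± 0.57 had p values of 0.11 and 0.12 (exact permutation 0.10 and 0.16).

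**Figure D2:**
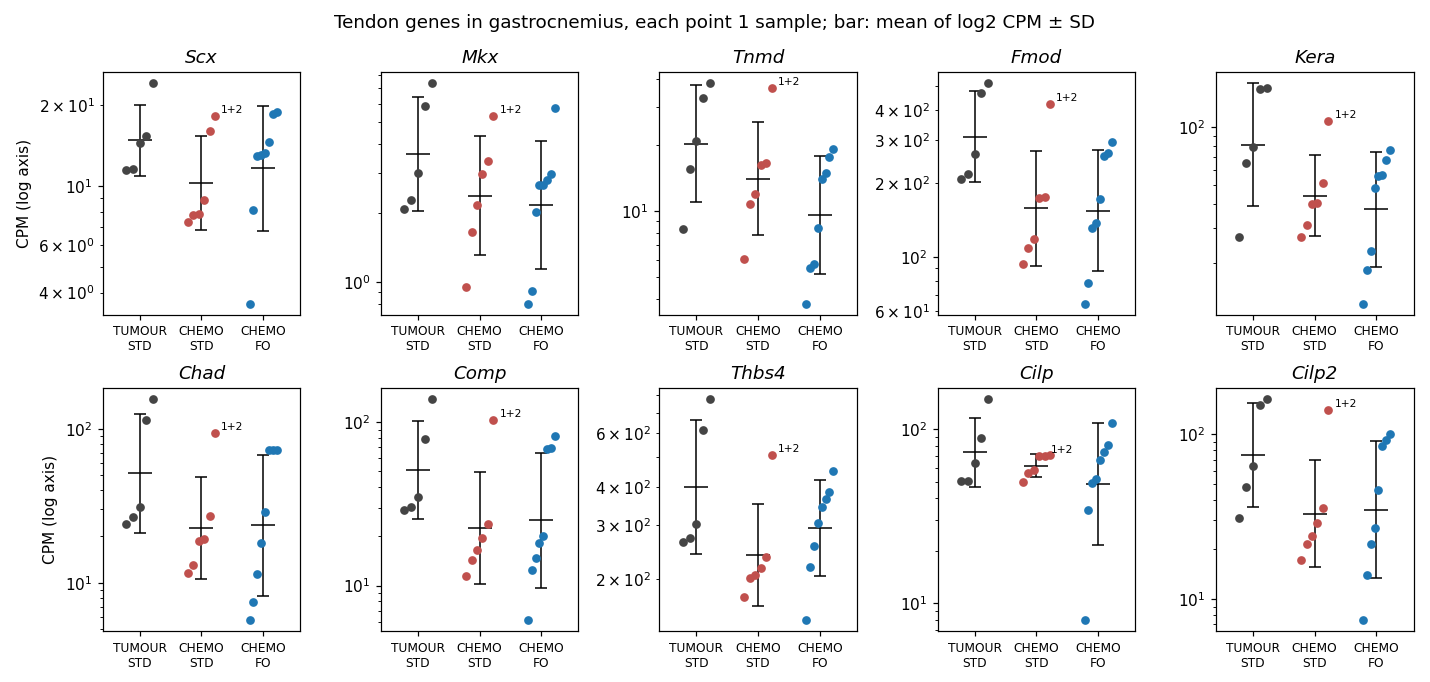
Level of each tendon gene in CPM (log axis) in the 5 TUMOUR STD, 6 CHEMO STD and 8 CHEMO FO samples; points are samples, bars the mean of log2 CPM ± SD, and 1+2 marks the summed pair of CHEMO STD libraries. TUMOUR STD replicates 10 and 12 form the upper pair of points in most panels, as for Chad at 156 and 115 CPM, and sample 1+2 is the highest CHEMO STD point in every panel but Cilp.

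The spread between rats of a group was wider for these genes than for most genes. Their biological coefficient of variation in edgeR ran from 0.365 (Scx) to 0.744 (Chad), where the median of all genes tested was 0.229, and placed them between the 87.6th and the 99.6th percentile of those genes. In TUMOUR STD replicates 10 and 12 and in CHEMO STD 1+2 all 10 genes were above their median over the 19 samples, and CHEMO FO replicates 13, 14 and 16 were above it for 8, 9 and 9 genes. CHEMO STD replicate 6 and CHEMO FO replicates 15, 18 and 20 were above it for 0 of 10. The mean log2 CPM over the 10 genes was 6.67 and 6.49 in TUMOUR STD replicates 10 and 12 against 5.14 to 5.24 in the other 3, so rats of this group differed by more than the median change between groups. In CHEMO STD it was 6.29 in sample 1+2 and 4.41 to 4.98 in the others, and in CHEMO FO it ran from 3.50 in replicate 18 to 5.86 in replicate 16. The libraries of CHEMO STD 1 and 2 gave nearly the same values, such as 421 and 416 CPM for Fmod and 92.9 and 93.5 CPM for Chad.

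After each group's mean was subtracted from the log2 CPM values, all 45 pairs of the 10 genes were positively correlated over the 19 samples. Pearson's r ran from 0.47 to 0.97 with a median of 0.78, and 41 pairs were above 0.5. Fmod and Comp were the most alike (r = 0.97, rho = 0.96), and Fmod with Cilp2 and Chad with Comp followed at 0.95. Tnmd and Kera formed another close pair (r = 0.91). Scx, the transcription factor, was the least tied to the rest, with a median r of 0.55 and its lowest value, 0.47, with Comp, and Cilp came next with a median of 0.61. Without the 2 most extreme samples, CHEMO STD 1+2 and CHEMO FO replicate 18, the median r was 0.72, the range 0.26 to 0.96, and 36 pairs stayed above 0.5. The points share library and depth; the correlation of the 10 genes' mean deviation with log2 library size was 0.091, and -0.31 without CHEMO STD 1+2 or -0.13 without this sample and CHEMO FO replicate 18. In CHEMO FO replicate 18 all 10 genes were below their group mean, but to different degrees. Thbs4, at 256 CPM, was in the middle of its range and only 0.20 below its group mean on the log2 scale. Scx, Kera, Chad, Cilp and Cilp2 were at their lowest values of all 19 samples.

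**Figure D3:**
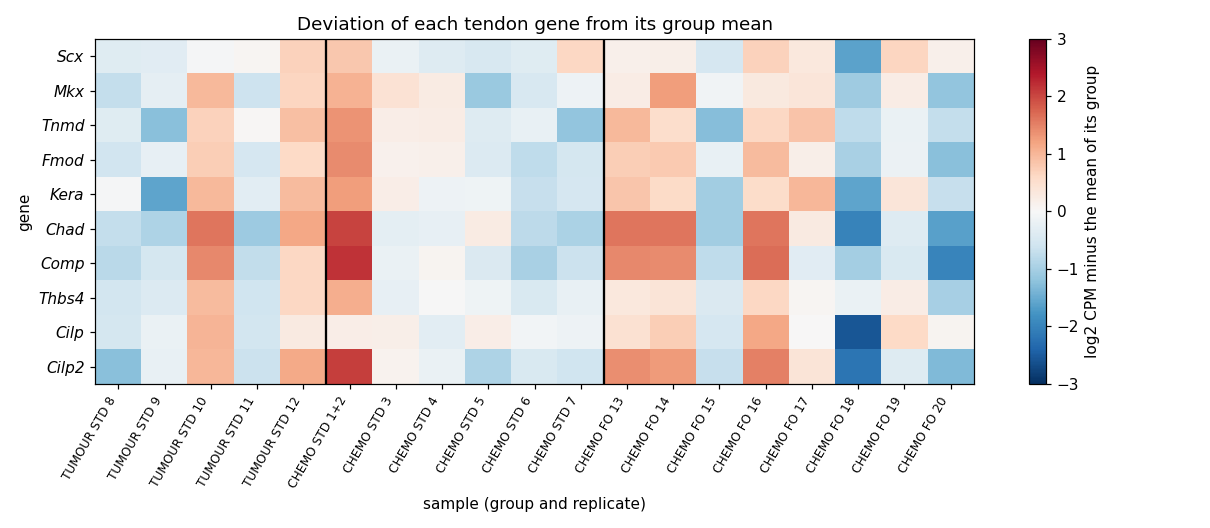
Deviation of each tendon gene (rows) from its group mean in log2 CPM, for the 19 samples (columns, divided by group); red is above and blue below the mean. Columns are of nearly 1 colour, red in TUMOUR STD 10 and 12, CHEMO STD 1+2 and CHEMO FO 13, 14 and 16, and blue in CHEMO FO 15, 18 and 20, as the median pairwise r of 0.78 gives in numbers.

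Since the members moved together across samples, the bases before their transcription starts are shown for 2 of the close pairs, Fmod with Comp and Tnmd with Kera, and for Thbs4, called in CHEMO STD. A RefSeq promoter (GRCr8 build) was found for 9 of the 10 genes. Each line gives the 250 bases before the start, 5′ to 3′ on the strand of the gene, and capitals mark matches to the E-box letters CANNTG, the type of site that basic helix-loop-helix factors such as Scx bind.
Fmod, chr13:48045317-48045566, plus strand: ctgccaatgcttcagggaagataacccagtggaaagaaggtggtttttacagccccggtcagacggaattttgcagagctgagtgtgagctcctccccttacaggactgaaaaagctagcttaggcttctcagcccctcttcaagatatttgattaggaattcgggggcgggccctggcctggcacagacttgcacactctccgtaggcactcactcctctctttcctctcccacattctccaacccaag
Comp, chr16:19089549-19089798, minus strand: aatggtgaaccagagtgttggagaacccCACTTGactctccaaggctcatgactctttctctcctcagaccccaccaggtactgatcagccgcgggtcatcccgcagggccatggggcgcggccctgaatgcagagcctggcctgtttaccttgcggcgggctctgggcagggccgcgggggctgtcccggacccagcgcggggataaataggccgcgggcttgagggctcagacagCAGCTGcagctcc
Tnmd, chrX:101350182-101350431, plus strand: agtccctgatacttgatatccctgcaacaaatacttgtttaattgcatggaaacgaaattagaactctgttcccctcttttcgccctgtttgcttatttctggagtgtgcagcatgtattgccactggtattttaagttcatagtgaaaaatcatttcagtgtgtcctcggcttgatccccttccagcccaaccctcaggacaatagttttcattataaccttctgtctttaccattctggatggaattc
Kera, chr7:34283850-34284099, plus strand: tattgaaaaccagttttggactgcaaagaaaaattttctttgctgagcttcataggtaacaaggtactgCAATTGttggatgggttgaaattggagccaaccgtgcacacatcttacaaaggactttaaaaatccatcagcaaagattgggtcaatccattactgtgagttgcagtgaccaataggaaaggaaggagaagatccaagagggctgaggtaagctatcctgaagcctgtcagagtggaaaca
Thbs4, chr2:25760346-25760595, minus strand: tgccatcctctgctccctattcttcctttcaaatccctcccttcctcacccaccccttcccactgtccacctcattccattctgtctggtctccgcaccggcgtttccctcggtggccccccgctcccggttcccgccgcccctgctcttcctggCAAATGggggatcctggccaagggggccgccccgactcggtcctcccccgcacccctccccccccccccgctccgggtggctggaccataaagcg
These letters, which read the same on either strand, were found in the windows of 6 of the 9 genes with a promoter, namely Kera, Chad, Comp, Thbs4, Cilp and Cilp2, and in 65.5% of the 33469 rat promoters of this length, so the members do not stand out. Comp, which varied almost in step with Fmod, held 2 matches and Fmod none, and Kera held 1 where its partner Tnmd held none. The narrower letters CAGATG, searched on both strands and included in CANNTG, occurred in Cilp alone, against 14% of all promoters, and TATAAA, also on both strands, in Chad alone, against 12.9%. The GC content of the windows ran from 40.8% in Tnmd to 71.2% at 1 of the 2 starts listed for Mkx.

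The genes whose deviations were most like the mean of the 10 members over the 19 samples were largely matrix genes. Tnc (tenascin-C, a matrix glycoprotein of tendon and its junction with muscle) came first with r = 0.99, then Fkbp9 (a prolyl isomerase of the endoplasmic reticulum, r = 0.97), Sparc (a collagen-binding matrix protein, 0.97) and Col11a1 (a fibrillar collagen, 0.96). Timp2, Thy1, Itgbl1, Col5a2, Gsn and Serpinf1 completed the 10, with r from 0.93 to 0.95. Of the 11706 other genes tested, 32 (0.273%) had r of at least 0.9, and the median r was 0.025. Tnc had 136 and 146 CPM in TUMOUR STD replicates 10 and 12 and 36.8 to 42.1 CPM in the other 3. It was at 77.8 CPM in CHEMO STD 1+2 against 20.3 to 29.5 CPM in the rest of that group, and went from 8.82 to 63.2 CPM in CHEMO FO. Its sample order was close to that of the members but not the same, and this likeness is what it was picked for. Tnc was called lower in CHEMO STD, by 1.23 ± 0.47 on the log2 scale (edgeR adjusted p = 0.72), and in CHEMO FO, by 1.26 ± 0.44 (adjusted p = 0.49). The first call ended without TUMOUR STD replicate 10 (log2 fold change -0.95) or 12 (-0.90), and the second without replicate 12 (-0.92). The other 9 were lower as well in both comparisons with TUMOUR STD; Fkbp9, Sparc and Col11a1 were called in CHEMO FO and none of the 9 in CHEMO STD. Without TUMOUR STD replicate 10 or 12 the calls of Fkbp9 (-0.42 and -0.49) and Sparc (-0.60 and -0.59) ended, as they did without CHEMO FO replicate 15 or 20 and, for Fkbp9, 18, while that of Col11a1 held with any 1 library left out.

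Other genes of tendon were taken from lists. Of 12 tested tendon and paratenon matrix genes, 11 were below their TUMOUR STD level in CHEMO STD, 1 of them called (Tnc), with a median log2 fold change of -0.44. In CHEMO FO 2 were called, Tnc and Matn4 (matrilin-4, -1.32 ± 0.50). Among 11 tendon and junction collagens, Col12a1 (a fibril-associated collagen, -0.90 ± 0.34) and Col22a1 (a collagen of tissue junctions, -0.60 ± 0.24) were called lower in CHEMO STD, and Col1a1 (-1.37 ± 0.60), Col11a1 (-1.24 ± 0.44) and Col12a1 (-0.81 ± 0.32) in CHEMO FO. Without TUMOUR STD replicate 10 the calls of Matn4 (-1.01), Col12a1 (-0.71 in CHEMO STD and -0.61 in CHEMO FO), Col22a1 (-0.55) and Col1a1 (-1.10) ended. Col12a1 (-0.65 and -0.55) and Col1a1 (-1.01) also lost theirs without replicate 12, and Col22a1 without replicate 9 (-0.40). Leaving out CHEMO FO replicate 15, 19 or 20 ended the call of Col1a1 as well, and TUMOUR STD replicate 8 or CHEMO STD replicate 1, 4 or 1+2 that of Col22a1. All 11 collagens varied in the direction of the members within groups, with r from 0.19 to 0.96 and a median of 0.88, and Col22a1 did so weakly (r = 0.34). None of 5 other small leucine-rich proteoglycans and none of 3 other thrombospondins was called in any comparison, with median log2 fold changes of -0.32 and -0.53 in CHEMO STD. No gene of the TGF beta and BMP signals that act upstream of Scx was called either, of 12 tested (median -0.16 in CHEMO STD and -0.17 in CHEMO FO). Among 11 other transcriptional regulators used in tendon, Egr1 was called lower in CHEMO STD (-0.98 ± 0.27), a call that held with any 1 library left out. Tgif1 was at 62.9 CPM in CHEMO FO replicate 18 and between 2.64 and 6.41 CPM in the other 18 samples. It was called higher in CHEMO FO against both other groups with that replicate, and had log2 fold changes of -0.097 ± 0.243 against CHEMO STD and 0.033 ± 0.252 against TUMOUR STD without it, neither called. None of these list genes passed an adjusted p of 0.05.

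The muscle side of the myotendinous junction, where fibre ends anchor to the matrix, was represented by 18 tested genes. Among them, Flnc (filamin C, an actin crosslinker; -0.79 ± 0.20) and Ankrd2 (a stretch-responsive ankyrin repeat protein; -0.86 ± 0.34) were called lower in the CHEMO STD comparison. The call of Flnc held with any 1 library left out, and that of Ankrd2 ended without TUMOUR STD replicate 10 (-0.65). Ankrd1, a related stretch- and injury-responsive gene, and Xirp1, an actin-binding protein, were called higher in CHEMO FO than in CHEMO STD, and both calls rested on CHEMO FO replicate 18. Ankrd1 was at 348 CPM there, against 6.95 to 28.1 CPM in the other 7 CHEMO FO samples and 7.42 to 28.9 CPM in CHEMO STD. Xirp1 was at 2409 CPM there, against 274 to 933 CPM in the other 7 and 237 to 516 CPM in CHEMO STD. Without that replicate the log2 fold changes were 0.12 ± 0.39 and 0.44 ± 0.24, neither called. No gene of this list was called in CHEMO FO versus TUMOUR STD. Taken gene by gene, the 18 had no common direction with the members. With the mean deviation of the 10 over the 19 samples, 8 correlated positively and 10 negatively. Their r ran from -0.73 (Fermt2) to 0.85 (Lama2), with a median of -0.10. The summed level of the 18 genes had r = -0.60. All 12 tendon matrix genes tested (median r 0.74, from 0.057 for Prg4 to 0.99 for Tnc) and all 3 thrombospondins (0.78 to 0.84) correlated positively.

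Fibroblast and cartilage markers moved with the members within groups. All 10 interstitial fibroblast markers correlated positively with them (r from 0.49 to 0.93, median 0.73), and their summed level ran from 1963 to 3903 CPM in TUMOUR STD, 1653 to 3206 CPM in CHEMO STD and 1491 to 2489 CPM in CHEMO FO, with none called in any comparison. Pdgfra, the defining fibroblast marker, was between 42.9 and 106 CPM in every sample. Cartilage markers followed the members too, with r = 0.94 for their summed level, where the summed fibroblast markers had r = 0.89. The summed cartilage level was low, at 0.909 to 23.8 CPM. Only 2 of 11 cartilage markers were tested, Acan (r = 0.86) and Col2a1 (r = 0.91). Col2a1 was called lower in CHEMO FO versus TUMOUR STD (-1.27 ± 0.56). That call ended without TUMOUR STD replicate 10 (-0.96), and also without replicate 12 or CHEMO FO replicate 15, 18, 19 or 20. Matn1, the cartilage matrilin, was at 0 in every sample. Bone markers summed to at most 7.09 CPM, and Bglap (osteocalcin) was at 0 throughout. Keratinocyte markers had r = 0.46 for their summed level, which was 377 CPM in TUMOUR STD replicate 10 and 82.4 CPM in CHEMO FO replicate 16. Their r without these samples was not computed. Without both these samples no member was called in CHEMO STD, 2 were called in CHEMO FO versus TUMOUR STD (Fmod and Tnmd), and the median r among the members was 0.77. Adipocyte markers had no common direction (4 of 6 positive, r from -0.51 to 0.29) and gave no call. In this bulk tissue, fewer tendon cells in a sample and less of each transcript per cell cannot be told apart.

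Several muscle and vessel genes were called between the same groups, none of them at an edgeR adjusted p below 0.05. Of all genes tested, 1.45% were called lower in CHEMO STD and 2.51% in CHEMO FO versus TUMOUR STD. All 10 slow-fibre markers had a lower level in CHEMO STD than with the tumour alone, 2 of them called (Myh7, the slow myosin heavy chain, -0.94 ± 0.28; Atp2a2 -0.62 ± 0.20), and Myh7 was also called lower in CHEMO FO (-0.61 ± 0.26). The CHEMO STD call of Myh7 held with any 1 library left out, whereas its CHEMO FO call ended when any 1 of 8 libraries was left out (TUMOUR STD 9, 10 and 12, CHEMO FO 13, 15, 17, 18 and 20), with -0.45 without TUMOUR STD replicate 10. The call of Atp2a2 ended without replicate 8 of TUMOUR STD (-0.54), and likewise without 6, 7 or 1+2 of CHEMO STD. Of the 10, 8 correlated positively with the members, from -0.32 to 0.53. Of 5 tested smooth muscle markers, 4 were called lower in CHEMO STD (Myh11 -0.93 ± 0.22, Acta2 -1.11 ± 0.28, Tagln -0.74 ± 0.25 and Actg2 -1.14 ± 0.55) and 3 in CHEMO FO versus TUMOUR STD (Myh11, Acta2 and Tagln). The calls of Myh11 and Acta2 held with any 1 library left out, that of Tagln held so in CHEMO STD and ended in CHEMO FO without replicate 14, 15 or 18 (-0.48 for the last) or TUMOUR STD replicate 8. That of Actg2 ended when any 1 of 12 libraries was left out (CHEMO STD 1 and 3 to 7, TUMOUR STD 8, 9, 10 and 12, CHEMO FO 17 and 19), with -0.90 without CHEMO STD replicate 4. The called genes correlated with the members at 0.24 (Myh11), 0.27 (Acta2), 0.49 (Tagln) and 0.63 (Actg2). Des, also a gene of striated muscle, correlated at 0.79 and was not called. None of 7 tested fast-fibre and muscle markers was called, and all 7 correlated positively with the members (r from 0.32 to 0.83). The part of these tissues in the level of the tendon genes was not tested.

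**Figure D4:**
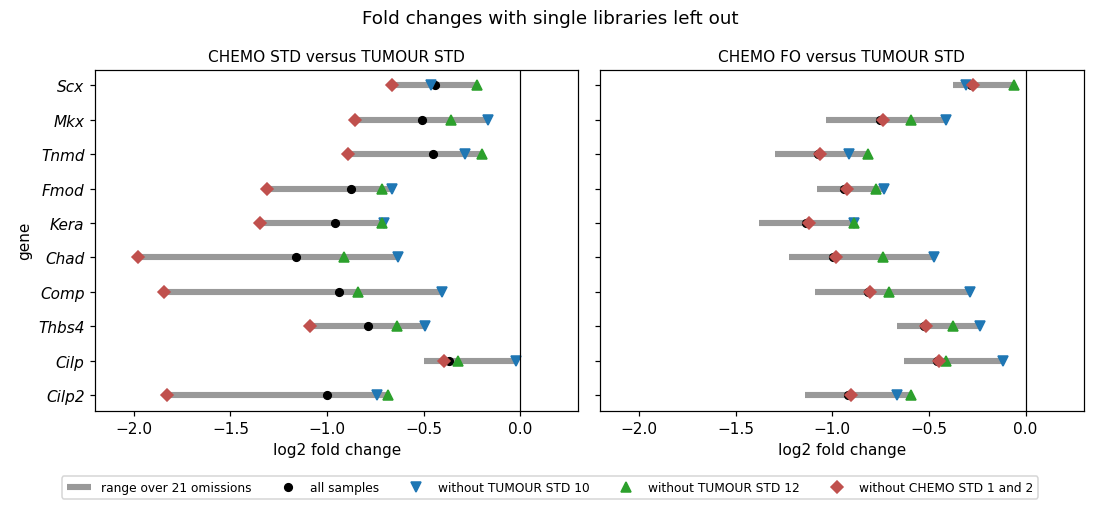
Log2 fold change of each tendon gene with all samples (black points), the range over 21 omissions of 1 library or of both CHEMO STD 1 and 2 (grey bars), and the values without TUMOUR STD 10, without TUMOUR STD 12 and without CHEMO STD 1 and 2 (coloured symbols), for both comparisons with TUMOUR STD. No bar reaches 0, but that of Cilp in CHEMO STD ends at -0.022. Chad in CHEMO STD moves from -1.16 to -0.63 without TUMOUR STD 10 and to -1.98 without CHEMO STD 1 and 2.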

How the data were processed

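RNA from gastrocnemius was sequenced as stranded, rRNA-depleted libraries. Per the labels and the paper's methods the authors used CASAVA 1.9, Trim Galore 0.4.1, FastQC 0.11.4, TopHat2 2.0.10 and Bowtie2 with the rat genome (Rnor 6), and deposited raw, whole-number counts per gene; the methods name Partek Flow for the aligned reads and an Ensembl annotation, and the strand and multi-mapping settings of the counting were not stated. Rows with no gene name (388, 0.102% to 0.272% of a library) were left out.

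Counts of 19 samples in 3 groups were fitted together in edgeR 4.0.16 (R 4.3.3) with TMM scaling, the default filter (minimum count 10, minimum total 15) and the quasi-likelihood test, and CHEMO STD libraries 1 and 2 were summed. Genes were called at an unadjusted p below 0.05 and at least 1.5-fold, the study's thresholds, with Benjamini-Hochberg adjusted p values beside them. Fold changes are log2, with SEs and 95% intervals from the same fit. Log2 CPM used a prior count of 2. Exact permutation tests were two-sided. The labels name no animals, so p-values measure the spread between these samples, which may in part be technical. Genes were named as the 10 members, of each of 16 lists up to 4 called genes with the smallest p, markers of muscle and fibroblasts, and the 10 genes most like the members. The members and lists were chosen with earlier results of these data known. Alternatives were limma voom 3.58.1, DESeq2 1.42.0, other scalings and filters, the 2 conditions alone, libraries 1 and 2 kept apart, and single libraries left out, for the list genes chosen after seeing the data. The results of 1 list are not reported here. Scripts were tested on simulated data. Figures used matplotlib.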

Additional observations from a re-analysis of the deposited data

Results flagged for a closer look

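In the group of 6 CHEMO STD samples, the summed pair 1+2 lay far above the next sample for 7 of the 10 genes, with a gap beyond the 95% critical value of Dixon's test for a group of that size. The values, each with that of the next sample, were 36.6 against 16.6 CPM for Tnmd, 422 against 176 CPM for Fmod, 107 against 51.1 CPM for Kera, 94.0 against 27.0 CPM for Chad, 102 against 23.7 CPM for Comp, 509 against 236 CPM for Thbs4 and 140 against 35.5 CPM for Cilp2. In CHEMO FO, replicate 14 stood apart for Mkx, at 5.72 against 2.96 CPM. Of the 30 sets of a gene and a group examined, 8 were past the critical value. The test was run on CPM and not on log2 CPM. Its rate of about 1 in 20 holds for normally distributed values, so the number expected by chance is not known here. The genes also vary together, so the 7 sets in CHEMO STD are not separate.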

How the results depend on the processing

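Under each alternative run the mean level of all 10 genes stayed below that of TUMOUR STD, in CHEMO STD and in CHEMO FO. The calls did not all hold. With CHEMO STD libraries 1 and 2 kept apart, 0 members were called in CHEMO STD and 1 (Tnmd) in CHEMO FO versus CHEMO STD, where Chad, Cilp2 and Comp turned to -0.18, -0.28 and -0.25. DESeq2 called 1 member (Thbs4) in CHEMO STD versus TUMOUR STD. In that comparison voom called Cilp2, Fmod and Thbs4, so Kera lost its call and Cilp2 gained one. In CHEMO FO versus TUMOUR STD voom called 1 member (Fmod). Between the chemotherapy groups voom turned Fmod and Kera to 0.24 and 0.13. Without TUMOUR STD 10 and CHEMO FO 16, an alternative chosen after seeing the data, 0 members and 170 genes were called in CHEMO STD, and Chad, Cilp2 and Comp turned to -0.066, -0.16 and -0.17 between the chemotherapy groups. An adjusted p below 0.05 left 0 members and 0 genes in each comparison. Without a fold threshold 762 genes were called in CHEMO STD and 1059 in CHEMO FO against TUMOUR STD, and 528 between the chemotherapy groups, and with no filter 971, 1116 and 722. With libraries left out, members called ran from 0 to 7 in CHEMO STD versus TUMOUR STD and from 0 to 4 in CHEMO FO versus TUMOUR STD, and genes called from 161 to 603 and from 273 to 584. Between the chemotherapy groups, the log2 fold change then ran from -0.067 to 0.997 for Chad, -0.27 to 0.089 for Cilp, -0.14 to 0.92 for Cilp2, -0.15 to 1.04 for Comp, -0.21 to 0.38 for Fmod, -0.33 to 0.22 for Kera and -0.53 to 0.12 for Mkx. Each upper end was reached without CHEMO STD 1 and 2, except that of Cilp, reached without CHEMO FO replicate 18. The cause of these changes was not tested. With TMM, RLE or no scaling the median of all genes moved by under 0.1 (log2). Mkx rests on as few as 3 counts. No paired analysis was possible because the replicate numbers are not shared between groups.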
